A study of Mus musculus with 6 samples.

Results

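Stretches of the mouse genome with a moderate number of CpGs that are methylated in control germ cells were compared between pups with and without Tex15. They were chosen as tiles of 1 kb, counted from position 1 of each autosome of the build mm9, with 10 to 19 CpGs in the deposited table and at least 10 calls in each of 6 samples. The pooled methylation level of the 4 control samples had to be 50% or more. A call is 1 read of 1 cytosine as methylated or not, and a level is the percentage of calls that were methylated. In all, 57046 tiles met the rule, 17.3% of the 330110 tiles tested and most of the 80471 tested autosomal tiles of 10 to 19 CpGs. They are called members below and held 675400 CpGs. The choice used the control levels and the depth of every sample, so the high control levels below are a description and no finding.

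The samples were male germ cells of single pups at postnatal day 2.5, sorted by the green fluorescence of an Oct4-GFP reporter and read by whole-genome bisulfite sequencing, which leaves methylated cytosines as C and reads others as T. There were 2 pups of each genotype: Tex15WT (pups 8 and 9, wild type), Tex15HT (pups 7 and 18, heterozygous) and Tex15KO (pups 3 and 16, homozygous mutant). All came from matings of heterozygous parents on a mixed strain background, and all carried the reporter by which they were sorted. The first 2 genotypes are the controls here. Each sample is 1 animal, so an SD below is over 2 or 4 pups unless it is said to be over tiles.

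Fetal male germ cells first lose most DNA methylation and then regain it before birth, when they rest as prospermatogonia. Most of the genome is remethylated in this phase, and young retrotransposons need in addition the PIWI proteins and their small RNAs, which direct methylation to the promoters of these elements. TEX15 is made in germ cells and works together with these PIWI proteins, and the study asks whether retrotransposon sequence is less methylated in its absence. CpGs are sparse in most methylated sequence, so tiles of 10 to 19 CpGs lean to the more CpG-rich side of the methylated genome. Transposon promoters and non-island gene starts are found there. All 10025464 cytosines of the table had at least 3 calls in each genotype. The CpG number of a tile counts CpGs of the table only, so it depends on coverage as well as on sequence.

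Sequences are shown first for the tiles in which a RefSeq gene start could be placed and in which methylation was much lower in both Tex15KO samples, since these are the members whose letters are known. Of 32851 RefSeq promoter sequences of 300 bases (250 before to 50 after the start, GRCm38.p6), 18541 had 6 or more CpGs, and 7506 were placed on the table by the spacing of their CpGs, at a single position of the labelled chromosome and in gene order. Before the check of the chromosome, 96.8% of the 7786 sequences placed at 1 position had landed on the labelled one. This procedure was added after the data were seen, and the letters between CpGs are those of GRCm38.p6. Starts fell in 94 members, with 93 genes, of which 62 are predicted or unnamed loci (symbols beginning with Gm or ending in Rik). In 3 of the 94 (3.19%) every control exceeded both Tex15KO samples by over 30 points, against 0.966% of all members and 0.456% of all tested tiles. Capitals mark the CpGs that the table reads, and each sequence runs 5′ to 3′ on the strand of its gene. The window of Gm40518 was placed at chr9:47966782-47967081 of mm9 (minus strand), that of Gm52510 at chr2:51987008-51987307 (plus strand) and that of Gm32362 at chr17:35642633-35642932 (minus strand).
Gm40518: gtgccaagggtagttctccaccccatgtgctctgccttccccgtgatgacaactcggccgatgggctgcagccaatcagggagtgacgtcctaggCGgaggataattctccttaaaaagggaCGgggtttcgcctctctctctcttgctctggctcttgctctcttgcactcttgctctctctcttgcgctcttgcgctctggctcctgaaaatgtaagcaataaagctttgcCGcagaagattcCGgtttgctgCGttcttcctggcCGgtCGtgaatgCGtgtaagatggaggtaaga
Gm52510: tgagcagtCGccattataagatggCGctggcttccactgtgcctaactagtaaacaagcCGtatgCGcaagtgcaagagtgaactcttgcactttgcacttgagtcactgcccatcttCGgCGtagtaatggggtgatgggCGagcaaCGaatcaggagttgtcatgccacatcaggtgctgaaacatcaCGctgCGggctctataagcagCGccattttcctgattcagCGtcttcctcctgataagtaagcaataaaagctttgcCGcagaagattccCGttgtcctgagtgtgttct
Gm32362: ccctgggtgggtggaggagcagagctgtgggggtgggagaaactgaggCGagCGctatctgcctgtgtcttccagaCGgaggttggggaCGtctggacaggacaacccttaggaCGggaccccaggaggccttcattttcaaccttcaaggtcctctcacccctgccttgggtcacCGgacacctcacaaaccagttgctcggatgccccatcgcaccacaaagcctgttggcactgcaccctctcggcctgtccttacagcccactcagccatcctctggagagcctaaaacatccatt

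The 14 CpGs of the Gm52510 window were all read. Wild-type pups 8 and 9 were methylated there at 94.1 and 91.7%, heterozygous pups 7 and 18 at 97.6 and 78.4%, and knockout pups 3 and 16 at 19 and 13.6%, from 36 to 105 calls. In the Gm40518 window, with 8 of 15 CpGs read, the wild-type pups were at 82.9 and 93.3%, the heterozygous pups at 77.3 and 92.0% and the knockout pups at 3.57 and 15.1%, in the same order and from 15 to 56 calls. Both Tex15KO samples were below all controls in both windows. The sequences of Gm52510 and Gm40518 share a run of 23 bases, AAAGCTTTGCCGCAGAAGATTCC, which 4 of the 32851 promoters hold (0.0122%). These 2 are the only ones of the 4 that could be placed, and the run was derived from them, so it says nothing of other loci. The whole tiles, 9:47966001 to 47967000 and 2:51987001 to 51988000, missed the edgeR threshold described below (adjusted p 0.0704 and 0.157) and passed in limma (0.00946 and 0.0220), with differences of -79.4 and -70.9 points between the Tex15KO mean and the control mean.

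Most other starts were not set apart in this way: 7 of the 94 start tiles were lower in each Tex15KO pup than in every control, whatever the margin. The same held for 4.90% of all members and 4.32% of all tested tiles, so this small count is only a description. The start with the most matched CpGs in a member was that of Gm30786, in the tile 11:65473001 to 65474000, shown for comparison (minus strand, same capitals). Its window, 11:65473814 to 65474113, reaches into the next tile.
Gm30786: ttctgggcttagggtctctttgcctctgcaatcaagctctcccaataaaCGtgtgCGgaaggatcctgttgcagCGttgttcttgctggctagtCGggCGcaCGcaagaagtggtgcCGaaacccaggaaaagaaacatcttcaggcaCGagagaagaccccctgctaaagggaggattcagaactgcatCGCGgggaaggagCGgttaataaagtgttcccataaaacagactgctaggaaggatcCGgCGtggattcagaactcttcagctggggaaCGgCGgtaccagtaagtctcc
Its window lay at 94.6 and 93.8% in Tex15WT 8 and 9, 96.8 and 95.5% in Tex15HT 7 and 18 and 81.0% in Tex15KO 16, with 0 calls in Tex15KO 3. The tile of Zmynd8, which encodes a chromatin reader, lay at 89.7 and 75.0%, 95.7 and 87.0%, and 68.6 and 80.7% in the same order of genotypes (edgeR adjusted p 1). Over the 94 tiles the median difference between Tex15KO and controls was 1.49 points, against 2.62 points over all members and 2.17 over all tested tiles. The tile of Gm35454 at 9:122347001 was a near miss, at 5.66% in Tex15KO 3 and 54.2% in Tex15KO 16 against 83.8 to 97.6% in the controls.

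Depth and sample kind bear on all values that follow. The table held between 27495658 and 52935635 calls per sample. Tex15KO 3 stood apart: only 38.0% of the CpGs of the members had a call there, against 91.9 to 98.2% in the other samples, and 96.4% of its covered CpGs with 6 to 10 calls had calls all alike, against 51.8 to 64.6%. A tile level of Tex15KO 3 thus rests on fewer CpGs than its calls show, and 61.1% of the members were at 100% there. Its call minimum also limited the choice: 80767 tiles would have qualified on the other 5 samples, of which 12674 had 0 calls in Tex15KO 3. Promoters of 5 of 8 germ cell genes (Ddx4, Dazl, Sycp1, Sycp3, Tdrd1), known to be unmethylated in germ cells and mostly methylated in somatic cells, could be placed, and none of 6 somatic genes. The wild-type pups were at 0 to 50% there, the heterozygous pups at 0 to 25% and knockout pup 16 at 0 to 25.8%. Knockout pup 3 was at 0.858% for Dazl and 0% for Tdrd1 and had 0 calls at the others. The highest values were those of Dazl in the wild-type pups, 43.1% in pup 8 and 50% in pup 9. The part of these differences between samples in the results below was not tested.

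As a whole, the members were methylated alike in all genotypes. Over all their calls, wild-type pups 8 and 9 were at 88.2 and 85.3%, heterozygous pups 7 and 18 at 89.1 and 87.9%, and knockout pups 3 and 16 at 88.2 and 87.0%. The Tex15KO samples lay within the range of the controls. The mean was 87.6% ± 0.811 (SD, n = 2) in Tex15KO and 87.6% ± 1.65 (SD, n = 4) in the controls, a difference of -0.00243 points (exact permutation test over samples, two-sided, p 1). The rule used the control levels, so the same was read in pups of a control group that took no part: it was -0.794 points against Tex15HT in tiles chosen on Tex15WT, and 1.15 points against Tex15WT in tiles chosen on Tex15HT (same test, p 0.667 for both). Over the members it was 0.899 points against Tex15WT and -0.904 against Tex15HT (same test, p 0.667 for both). With 2 against 4 samples the smallest p of this test is 0.0667, and with 2 against 2 samples 0.333, so it cannot reach 0.05 here.

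The tail of the distribution differed. In the controls, 9, 13, 16 and 4 members were under 20% methylated in Tex15WT 8, Tex15WT 9, Tex15HT 7 and Tex15HT 18, and the rule keeps such tiles few. In Tex15KO 3 there were 2006 (3.52%) and in Tex15KO 16 there were 495 (0.868%). In tiles of 3 to 9 CpGs methylated by the same rule, the shares were 3.14 and 0.348% in Tex15KO 3 and 16. With 20 or more CpGs they were 7.08 and 2.28%. Tex15KO 3 was extreme upward as well: among tiles of 10 to 19 CpGs below the control threshold, 7.95% were at 80% or more there. The other samples had 0.0939% or less. For the members, the mean share under 20% in Tex15KO was above that of the controls by 2.17 percentage points. This is a description with no test, since the rule holds the controls down. The same was read in control pups that took no part in the choice. Of 57114 tiles chosen on Tex15WT alone, 2.35% ± 1.90 were under 20% in Tex15KO and 0.0928% ± 0.0223 in Tex15HT (SD, n = 2 each). Of 57102 chosen on Tex15HT alone, the shares were 2.13% ± 1.88 in Tex15KO and 0.0736% ± 0.00743 in Tex15WT (exact permutation p 0.333 for both, the smallest possible). Pup 3 had the higher share of the 2 Tex15KO pups in both choices.

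**Figure D1:**
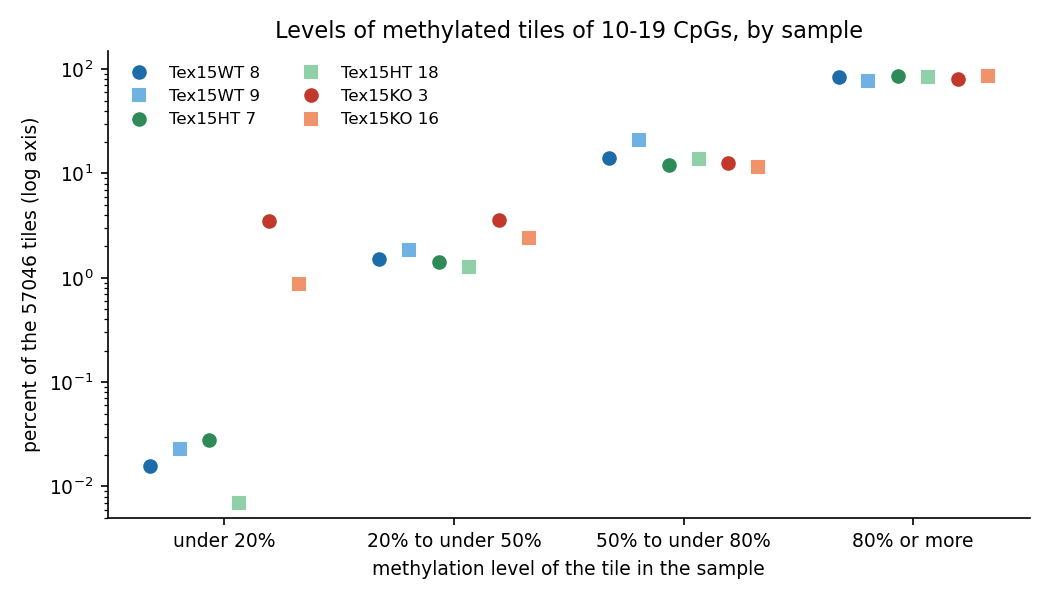
Percent of the 57046 methylated tiles of 10 to 19 CpGs (vertical, log axis) that fell in each of 4 classes of methylation level (horizontal), 1 point per sample, colour and shape marking genotype and pup. The samples are close in the upper classes, while under 20% the Tex15KO samples lie at 3.52 and 0.868% and the 4 controls at 0.0280% or less.

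The tail can be read in the knockout pup whose levels were not used to find it. All 4 controls take part in the choice of members, so their values in these tiles are a description. Knockout pup 16 was more than 40 points lower than wild-type pup 8 and heterozygous pup 7 in 666 members (1.17%). The other knockout pup averaged 24.6% in these tiles, with an SD of 30.9 over the tiles. The 2 control pups that entered only through the pooled level averaged 79.7% (SD over tiles 13.5, Tex15WT 9) and 77.6% (SD over tiles 15.3, Tex15HT 18). Of the 666, 406 (61.0%) were under 20% in Tex15KO 3, 0 in Tex15WT 9 and 1 in Tex15HT 18. Chosen the other way, on Tex15KO 3 against Tex15WT 9 and Tex15HT 18, the tiles were far more, 2851, and Tex15KO 16 averaged 68.6% in them, with 12.5% of them under 20%. Tex15WT 8 and Tex15HT 7 averaged 81.5 and 81.7% there. A low tile in Tex15KO 16 was thus mostly low in Tex15KO 3 as well, and most tiles low in Tex15KO 3 were not low in Tex15KO 16. The margin of 40 points was taken over from earlier results of these data.

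The low stretches were short. At CpGs within 500 bp of the centre of the nearest of the 666 tiles, Tex15KO 3 averaged 24.2%, against 79.9% in Tex15WT 9 and 77.6% in Tex15HT 18, both of which entered the pooled control level. Between 500 and 1000 bp Tex15KO 3 was at 38.5%, between 1000 and 1500 bp at 60.9% and between 1500 and 2000 bp at 72.7%. Beyond 3000 bp it lay at 75.5% or more, next to 76.6% in Tex15WT 9 and 77.9% in Tex15HT 18 between 3000 and 4000 bp.

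**Figure D2:**
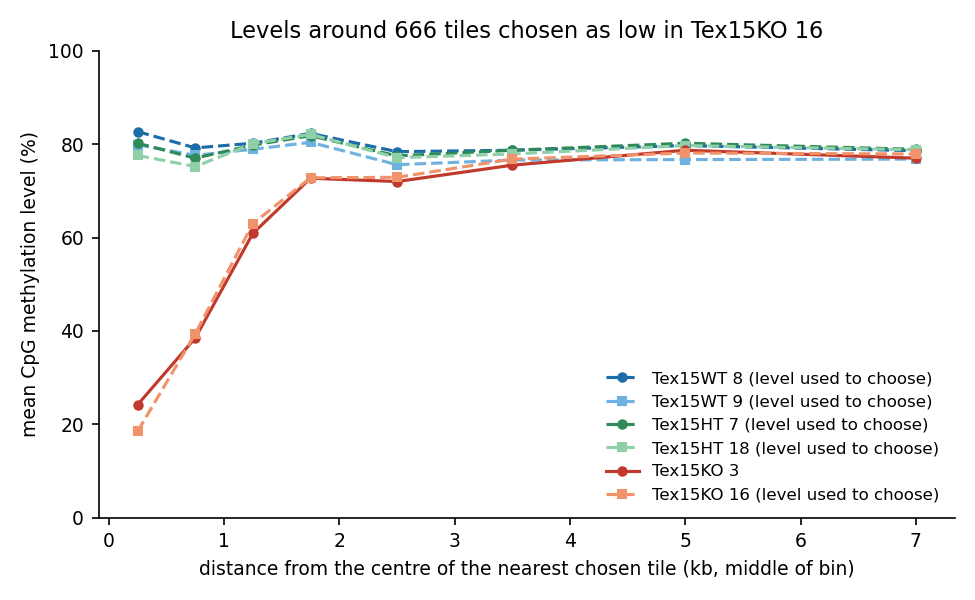
Mean methylation level of CpGs (vertical, percent) by distance from the centre of the nearest of 666 tiles chosen as low in Tex15KO 16 (horizontal, kb), 1 line per sample, dashed where the sample's level was used for the choice. The solid line of Tex15KO 3 rises from 24.2% at the centre to 72.7% between 1500 and 2000 bp, while the dashed lines of Tex15WT 9 and Tex15HT 18 stay between 75.2 and 82.1%.

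Every control exceeded both Tex15KO samples by over 30 points in 551 members. This is 0.966% of the members, against 0.456% of all tested tiles. The opposite, both over 30 points above every control, was seen in 0 members and in 0.0194% of all tested tiles, and members start so high that few could rise by that much. In the 551 tiles wild-type pups 8 and 9 averaged 81.6 and 80.3%, heterozygous pups 7 and 18 averaged 78.0 and 77.4%, knockout pup 3 averaged 9.86% and knockout pup 16 averaged 18.1%. Within them, single CpGs with at least 3 calls were mostly low: 82.6% were under 20% in Tex15KO 3 and 59.2% in Tex15KO 16, against 2.11 to 3.01% in the controls. The heterozygous pups, which the choice placed among the controls, were 3.27 points below Tex15WT in these tiles and 1.95 points above it in the other members. Exact permutation tests of the 2 differences, two-sided, gave p 0.333, the smallest possible, and 0.667. The choice used the levels of these same pups, so no step between the 2 control groups is read from these values. With margins of 10 and 50 points the counts were 1025 (1.80%, against 1.17% of all tested tiles) and 236 (0.414%, against 0.179%). By any margin, both Tex15KO samples were below all controls in 2794 members (4.90%, against 4.32% of all tested tiles) and above all in 5884 (10.3%, against 8.24%). With 1 Tex15KO sample the criterion is looser: the count was 1108 of the 80767 members that qualify without Tex15KO 3, and 3570 of the 57054 that qualify without Tex15KO 16. For these counts the shares over all tested tiles are not given.

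These low tiles were scattered. They formed 542 regions, 533 of 1 tile and 9 of 2 tiles, and lay on all 19 autosomes, from 0.506% of the members on chromosome 11 to 1.73% on chromosome 3. Only 42 adjoining tiles were members at all, and 18 of these were low too. The share rose with CpG number, from 0.746% of members with 10 CpGs to 1.59% with 16, 1.88% with 17, 2.64% with 18 (19 tiles) and 1.67% with 19 (7 tiles). Depth rose along with it, from a median of 19 calls in the least covered sample at 10 CpGs to 37 at 19 CpGs, and its part in the rise was not tested.

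**Figure D3:**
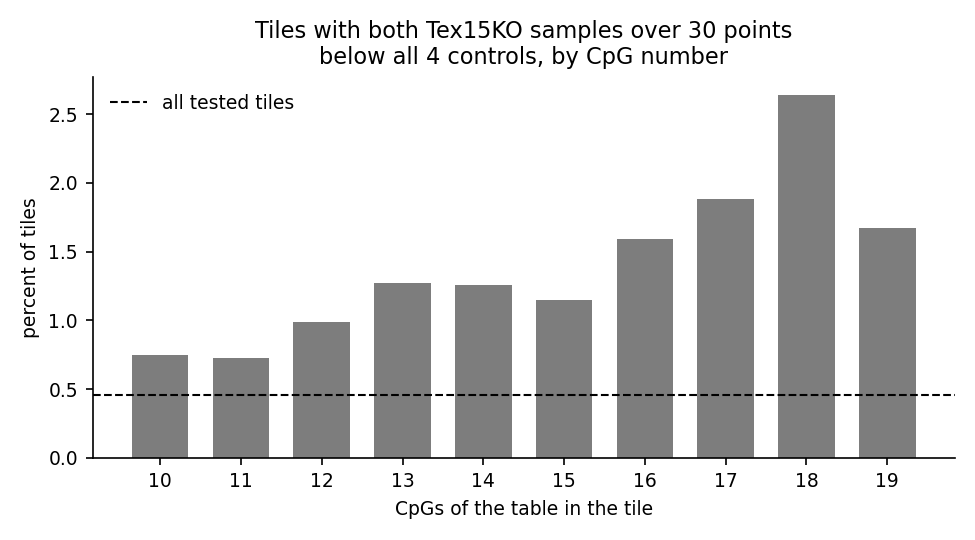
Percent of methylated tiles (vertical) in which the 4 controls exceeded both Tex15KO samples by over 30 points, by the number of CpGs in the tile (horizontal). The bars run from 0.725% at 11 CpGs to 2.64% at 18, all above the dashed line, which marks the 0.456% of all tested tiles.

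Set against the classes nearest in kind, the members stood between them. All classes were chosen by the levels of the same 4 controls, so the differences between Tex15KO and controls below are a description with no test. Among autosomal tiles methylated in controls by the same rule, 0.411% of those with 3 to 9 CpGs and 2.63% of the 876 with 20 or more CpGs were low by over 30 points. Depth differed as well: the median calls per tile in Tex15WT 8 were 18 with 3 to 9 CpGs, 32 in the members and 62 with 20 or more CpGs. The part of depth in these shares was not tested. The level of the members was below that of tiles with 3 to 9 CpGs by 1.51 points in the controls (SD 0.0337, n = 4) and by 2.14 points in Tex15KO (SD 0.164, n = 2). The gap was wider in both Tex15KO samples than in any control, with a difference of -0.632 points. With at least 30 calls per sample and tile it was 0.0496 points. Against tiles with 20 or more CpGs the members were higher by 9.95 points in the controls (SD 0.837, n = 4). In Tex15KO they were higher by 15.9 points (SD 0.934, n = 2), a difference of 5.92 points.

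Single tiles were tested with edgeR's quasi-likelihood test on methylated and unmethylated calls, adjusted by Benjamini-Hochberg over all 330110 tiles and called at an adjusted p under 0.05. Against both control groups, 51 members were lower in Tex15KO (0.0894%, against 0.0379% of all tested tiles) and 0 were higher (0.000606% of all tested tiles). At an unadjusted p under 0.05, edgeR had 828 members higher (1.40% of all tested tiles). The 51 lay on 17 chromosomes with differences from -93.4 to -50.7 points and a median of -79.6. In all 51 both Tex15KO samples were over 30 points below every control, Tex15KO 3 was at 0% in 28 and Tex15KO 16 under 20% in 47. Limma, on log2 ratios of the calls, called 357 lower (0.626%, against 0.271% of all tested tiles) and 1 higher (0.00576% of all tested tiles), with 50 of the 51 among them. Against Tex15WT alone edgeR called 8 members, all lower (0.00939% of all tested tiles were called lower), and against Tex15HT alone 2, both lower (0.00485%). Limma called 133 lower against Tex15WT (0.0963% of all tested tiles) and 81 lower against Tex15HT (0.0612%). All members that edgeR called in these 2 comparisons were among the 51. Between Tex15HT and Tex15WT edgeR called 0 members (0.00121% of all tested tiles; 333 members, and 0.537% of all tested tiles, at an unadjusted p under 0.05), while 0 members and 0% of all tiles passed in limma. The comparisons with Tex15WT, with Tex15HT and with both share the Tex15KO samples. The count of 51 was 2 without any 1 of the 4 controls. Without Tex15KO 3 it was 414, all lower, and without Tex15KO 16 it was 4139, of which 2858 were lower and 1281 higher. In these 2 fits Tex15KO is a single sample, assumed to vary like the other groups. For the fits with a sample left out, the shares over all tested tiles are not given. Their counts thus do not set members apart from other tiles.

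The 15 called tiles with the largest decreases went from nearly full methylation to almost none. At 6:138171001 to 138172000 (14 CpGs) wild-type pups 8 and 9 were at 95.2 and 100%, heterozygous pups 7 and 18 at 96.2 and 95.8%, and knockout pups 3 and 16 at 0 and 6.82%. The 0% of Tex15KO 3 rests on 21 calls at 2 of the 14 CpGs, and the others had no call there. These calls allow a level of up to 14.3%, by counting error only and if each were a separate molecule. The difference was -93.4 points (edgeR adjusted p 0.00444, lower in 2 of 2 Tex15KO samples). At 2:137866001 to 137867000 (13 CpGs) the levels were, in the same order, 90.3 and 85.4%, 92.7 and 88.9%, and 2.08 and 1.49%, on at least 31 calls, a difference of -87.5 points (0.00684, edgeR). At 12:55390001 to 55391000 (15 CpGs), the best covered of the 15, they were 90.2 and 87.7%, 90.9 and 85.1%, and 1.67 and 3.8%, on at least 44 calls (-85.7 points, edgeR adjusted p 0.00715). At 17:17691001 to 17692000 (10 CpGs) both Tex15KO samples were at 0%, from 12 and 55 calls, which allow levels of up to 25 and 5.45%. The wild-type pups there were at 86.8 and 100% and the heterozygous pups at 76.7 and 91.7% (edgeR adjusted p 0.0143). The calls of Tex15KO 3 fell on 4 of the 10 CpGs of this tile. They fell on 4 of 13 CpGs at 2:137866001 and on 5 of 15 at 12:55390001.

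The other 11 were 4:8412001, 10:29007001, 3:19948001, 1:134307001, 17:74872001, 4:88230001, 5:9814001, 3:95210001, 3:53905001, 17:22963001 and 9:103011001, each given by the first position of its tile. Over all 15 tiles, Tex15KO 3 and 16 were at 9.68% or less and the controls at 76.7% or more, so the groups are far apart, as the choice by size of decrease requires. CpG by CpG, 194 of their 195 CpGs were at 50% or more in the pooled controls. In Tex15KO 16 all 195 had calls and 161 were at 0%, and in Tex15KO 3 only 68 had calls, 62 of them at 0%. In Tex15KO 16 the low level of a tile was thus spread over its CpGs, which spanned 156 to 916 bp from the first to the last. In Tex15KO 3 this could not be seen in every tile, with calls at only 1 CpG of 3:19948001 and 2 of 6:138171001. Of the nearest gene starts that could be placed, that of Dstyk, which encodes a protein kinase, lay 6.03 kb from the tile at 1:134307001, that of Hltf, a helicase-like chromatin factor, 8.81 kb from 3:19948001, and that of Yipf4 15.8 kb from 17:74872001, with the tile on the upstream side each time. The rest were 25.2 kb or more from any start placed, and many starts could not be placed. All 15 calls were lost when any 1 of the 4 controls was left out (adjusted p 0.0950 to 1), while the differences stayed between -79.7 and -96.8 points over all samples left out. All 15 were called in limma (adjusted p 0.00285 to 0.00504).

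**Figure D4:**
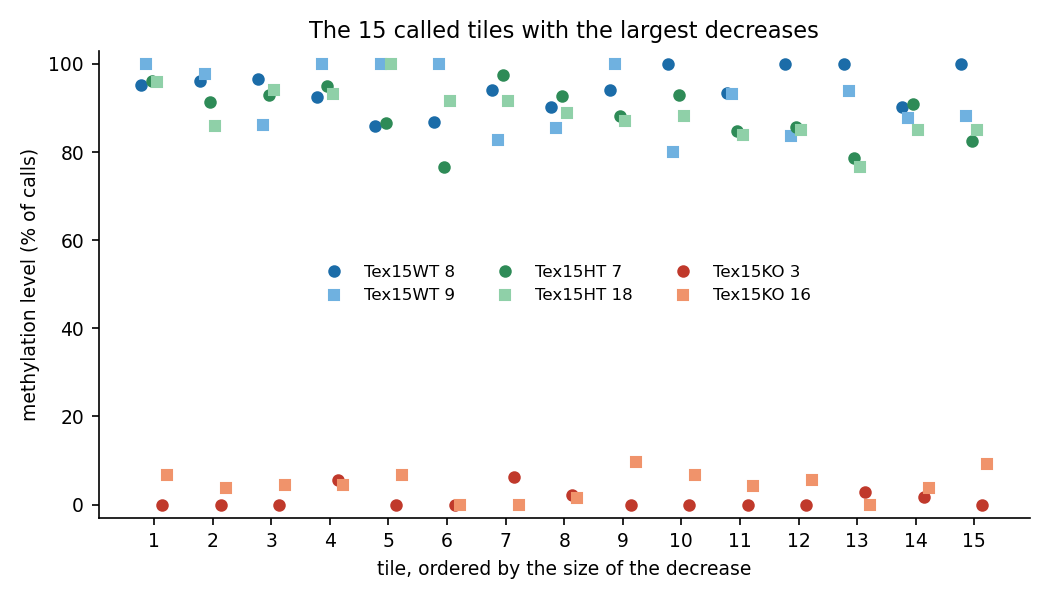
Methylation level (vertical, percent of calls) of the 15 called tiles with the largest decreases (horizontal, ordered by decrease), 1 point per sample. In every tile the 2 Tex15KO samples lie at 9.68% or less and the 4 controls at 76.7% or more.

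Deep coverage gave 1 further tile at a gene start. Within chr17:35634001-35652000 (mm9), 18 adjoining tiles had 23.3 to 179 calls per CpG in every sample, against a median of 2.80 to 4.50 per CpG over the members. The start of Pou5f1, which encodes the transcription factor Oct4 and from which the sorting reporter takes its name, was placed inside this interval, at 17:35645001 to 35646000. Reads from reporter copies and from the gene itself cannot be told apart in the table, and the share of each was not tested. The interval held 10 members, and the Pou5f1 tile was high in every sample, at 93.6 and 93.8%, 94.5 and 93.6%, and 98.0 and 94.5%. A tile 3 kb away, 17:35642001 to 35643000, holds the start of Gm32362 shown above, and was the only one of these members to be called. Wild-type pups 8 and 9 were at 79.2% (95% Wilson interval 75.4 to 82.4) and 75.2% (71.2 to 78.8) there. Heterozygous pups 7 and 18 were at 51.0% (47.2 to 54.8) and 50.2% (46.7 to 53.7), and knockout pups 3 and 16 at 3.86% (2.49 to 5.95) and 12.7% (10.8 to 14.8), on 492 to 1035 calls. The groups did not overlap, and the heterozygous pups lay between the others. The Tex15KO difference was -55.6 points from the controls (edgeR adjusted p 0.000212, limma 0.0390). The step from Tex15WT to Tex15HT was not called (edgeR and limma adjusted p 1), nor was Tex15KO against Tex15HT (edgeR 0.171, limma 0.511). Of its 13 CpGs, 6 remained when the most deeply read cytosines (the top 0.1%) were left out. At these the wild-type pups were at 5.56 and 33.3%, the heterozygous pups at 12 and 30.8% and the knockout pups at 0 and 13.2%, on 18 to 39 calls, and the call was lost (edgeR adjusted p 1).

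Deep members were few. With at least 20 calls per CpG in every sample there were 43 members, among 286 tested tiles of this depth. Of the 43, 2 were called lower (4.65%, against 0.0894% of all members and 0.0379% of all tested tiles). The share called among the 286 is not given, so no trait of deep members is read from this. The 2 were the Gm32362 tile and 11:3092001 to 3093000. The latter, on at least 951 calls, was at 67.1 and 66.1% in the wild-type, 66.5 and 65.5% in the heterozygous and 16.4 and 14.9% in the knockout pups (edgeR adjusted p 8.20e-05, limma 0.204). By the calls of their least covered sample, the 4 other deepest members were 15:74917001 (from 76.3 to 80.7% in the controls and 82.2 to 86.8% in Tex15KO), 10:7233001 (49.5 to 53.4% and 48.3 to 50.8%), 17:35651001 (87.3 to 90.3% and 90.0 to 90.3%) and the Pou5f1 tile. None of these 4 was called (edgeR adjusted p 1 each). At the edge of the rule, the 3 members just inside, 3:10359001, 3:116627001 and 3:121263001, had pooled control levels of 50% and the 3 tiles just outside, 11:101811001, 2:35224001 and 19:8914001, of 49.8%.

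Recurring CpG spacing, which marks repeated sequence, was more frequent among the low tiles, in counts that carry no test. A run of 6 CpGs whose 5 distances recur at 10 or more places of the table was held by 69 of the 551 low members (12.5%), by 1.04% of the other members and by 1.28% of all tested tiles. Read the other way, 10.5% of the 657 members with recurring spacing were low by over 30 points and 0.855% of those without. The 482 low members without such a run are still the greater number. The 5 spacings held by most members were simple steps of 2, 4 or 6 bp: 2-2-2-2-2 (152 members), 2-2-2-2-4, 2-2-2-4-2, 2-2-2-2-6 and 4-4-4-4-4 (31 members). Of their tiles 0 were low. Only 0.966% of all members were low, so no difference is read from a 0 among so few tiles. The tiles with 2-2-2-2-2 lay at 87.7 and 85.6%, 87.8 and 84.7%, and 86.1 and 86.8% over the runs. Another 10 spacings, picked because most of their members were low, were held by 48 members, 43 of them low. Those that hold 3-7-13-4 (16 members on 10 chromosomes) averaged 79.3 and 86.8% in the wild-type, 78.8 and 81.9% in the heterozygous and 13.9 and 16.2% in the knockout pups, and 15 of the 16 were low. Those with 4-5-7-7 (19 members on 13 chromosomes) averaged 86.8 and 86.7%, 78.6 and 82.6%, and 25.3 and 18.1%, with 15 of 19 low. With 2-6-2-4-13, 5 of 26 members were low.

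What such a spacing looks like in letters is shown by RefSeq promoters that hold it. They could not be placed at a single position, so whether they lie in members is not known. That they and the members are copies of 1 sequence was not tested. The first stretch, from A230004M16Rik on chromosome 11, holds the spacing 7-7-5-4-29 and with it 4-5-7-7 read from its other end. The second, from Gm35240 on chromosome 12, holds 4-21-12-4-15. The 6 CpGs of the run are in capitals.
A230004M16Rik: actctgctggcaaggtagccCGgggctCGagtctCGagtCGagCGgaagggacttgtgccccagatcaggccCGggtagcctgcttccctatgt
Gm35240: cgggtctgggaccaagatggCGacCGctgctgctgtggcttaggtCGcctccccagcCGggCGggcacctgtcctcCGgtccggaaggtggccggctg
The 14 members with 7-7-5-4-29 averaged 86.7 and 86.0% in the wild-type, 79.1 and 81.5% in the heterozygous and 21.9 and 20.7% in the knockout pups, and 12 were low. The 7 members with 4-21-12-4-15 averaged 87.8 and 88.2%, 79.2 and 82.1%, and 8.82 and 11%, and all 7 were low. Copies of 1 sequence can take each other's reads in alignment, so members that share a spacing are not independent.

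**Figure D5:**
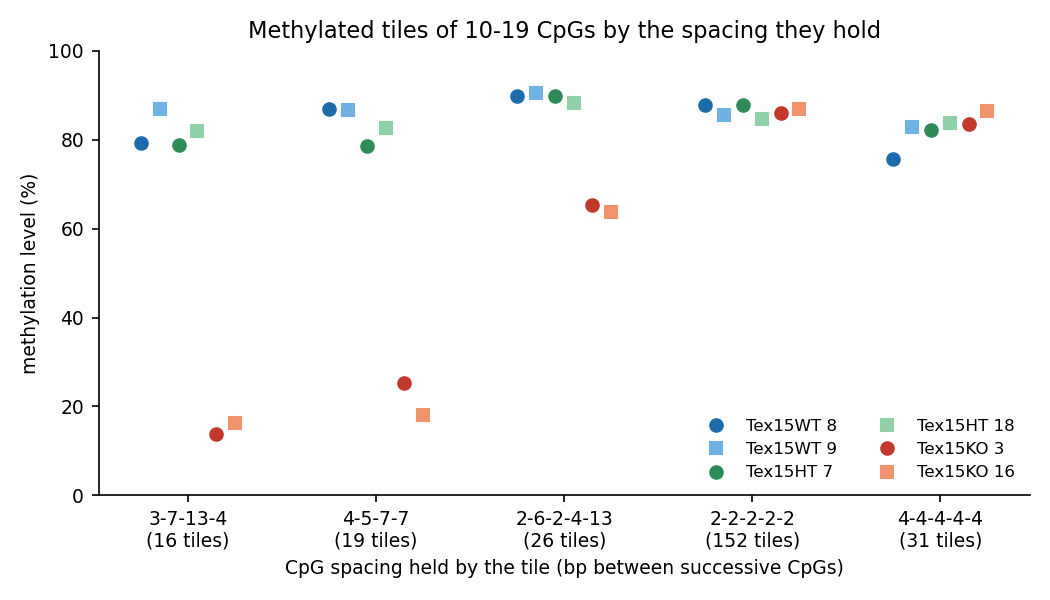
Methylation level (vertical, percent) of members by the CpG spacing they hold (horizontal, distances in bp between successive CpGs, with the number of tiles), 1 point per sample. The points are means of whole tiles for the left 3 spacings, which were singled out after earlier results, and levels of the runs themselves for the right 2. The Tex15KO samples lie at 13.9 to 25.3% for 3-7-13-4 and 4-5-7-7, at 65.4 and 63.7% for 2-6-2-4-13, and among the controls for 2-2-2-2-2.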

How the data were processed

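Per the labels, each library came from the bisulfite-treated DNA of a single pup, built with an Ovation Ultralow kit after a spike of lambda phage DNA. The deposited table gives counts of C and T calls per CpG cytosine on mm9. BSMAP, Bismark and methylKit are named in the submitters' processing notes, with no role or version. The sources used here give neither the removal of PCR duplicates nor the conversion rate, and PCR copies are not independent molecules, so intervals cover counting error only.

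Strands were summed, and tiles of 1 kb with 3 or more CpGs and 10 or more calls in each sample were tested by the quasi-likelihood functions of edgeR 4.0.16 (R 4.3.3), with all 6 samples together and each sample with its own intercept. The prior degrees of freedom came out infinite, so a tile's p reflects the spread shared over tiles. Tiles were also simulated with the depths of Tex15KO against both control groups (21386 tiles). All samples were given the same spread, and only tiles highly methylated in controls were lowered. The few CpGs and alike calls of Tex15KO 3 were not simulated, so the rates need not hold for these data. On the simulated tiles edgeR recovered 16% of differences of 25 points, 94% of 50 and 100% of 80, with 0 false calls. Limma 3.58.1 on log2((C+1)/(T+1)), which recovered 18, 94 and 100% there and made 10 false calls (0.0472%), was the main alternative. Others were 30 calls, no cytosines in the top 0.1% of coverage, tiles shifted by 500 bp, a control level of 80%, other margins, and each sample left out. Tiles named were the 15 largest decreases among called members, up to 5 called increases (there were 0), the 5 deepest members and the 3 on each side of the threshold. Promoters were placed by CpG spacing only, since no genome or annotation of mm9 was used here. Members, margins and lists were chosen with earlier results of these data known, and the promoter, spacing and Pou5f1 descriptions after values were seen.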

Additional observations from a re-analysis of the deposited data

How the results depend on the processing

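At 10 calls per sample a tile level is coarse, Tex15KO 3 read few CpGs, and on simulated tiles differences of 25 points were mostly missed by edgeR (16% recovered). No paired analysis was possible, because each pup has 1 genotype and the labels used here give no litter. Leaving out each sample in turn, edgeR called 2 to 4139 members in Tex15KO against both control groups (51 with all samples), 0 to 3152 against Tex15WT (8) and 0 to 2975 against Tex15HT (2). The lowest counts came without a control, with all calls lower. The highest came without Tex15KO 16, with 1281, 1081 and 683 of the calls higher in these 3 comparisons. The members over 30 points below all controls numbered 572 to 3570 in these settings (551 with all samples), and 1025 and 236 with margins of 10 and 50 points. The difference in level over all calls of the members, -0.00243 points, lay between -0.826 and 0.571 over the samples left out. It changed sign without Tex15WT 8 (0.138), Tex15HT 7 (0.426) and Tex15KO 16 (0.571), with 30 calls (0.00452), with a control level of 80% (0.0969) and with members chosen on Tex15HT (1.15, against Tex15WT), so it has no direction. The gap to tiles of 3 to 9 CpGs also changed sign with 30 calls (0.0496), and the cause was not tested. With 30 calls, which leaves fewer tiles to adjust over, 23 members were called against Tex15WT and 17 against Tex15HT, and 125 were over 30 points below. Without the top 0.1% of coverage 0 were called in both comparisons. Shifted tiles gave 4 calls against Tex15WT. A control level of 80% gave 5 and 1 calls and 300 tiles over 30 points below, from fewer members. For these settings, and for those with a sample left out, the shares over all tested tiles are not given. The counts therefore describe the members alone. Limma called 133 members against Tex15WT, 81 against Tex15HT and 358 against both. The calls of the 15 named tiles were lost without any 1 control, and those of 2 of them without the top 0.1% of coverage (adjusted p up to 0.0522).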
